A study of Drosophila melanogaster with 6 samples.

Results

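Described here are 7 Drosophila melanogaster genes of sodium and calcium channels: para, NaCP60E, tipE, cac, Ca-alpha1D, Ca-alpha1T and na. They were chosen by gene symbol, with no measured value in the rule, and are 7 of the 17490 genes of the deposited table. Voltage-gated sodium channels open when a neuron depolarises and carry the rising phase of the action potential. Voltage-gated calcium channels turn the same depolarisation into an entry of calcium, which releases transmitter at presynaptic terminals and signals in cell bodies and dendrites. Sodium leak channels carry a small standing current that sets how close a resting neuron lies to its threshold.

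RNA was measured in larval brains of the 3rd instar that expressed an RNAi construct against DMAP1 under elav-Gal4, a neuronal driver. DMAP1 is a subunit of a chromatin remodelling and histone acetylating complex. The labels give 6 samples of this 1 genotype, with no age beyond the stage and no treatment. The 6 libraries carry column names in 2 series of 3, DMAP1RNAi63666 and DMAP1RNAi103734, and the labels do not say what these stems stand for. Columns named as wild type match no labelled sample and were not analysed here, so no effect of the knockdown is given. The driver acts in neurons, while a whole brain also holds glia and neuroblasts, and no label says how many animals entered a sample. In such bulk tissue, fewer cells of a type and less RNA per cell cannot be told apart.

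Total counts were 31518485 to 37236953 read pairs per library. The libraries held the markers of a larval brain: elav, the pan-neuronal RNA-binding protein, was at 149 to 184 TPM in the DMAP1RNAi63666 series and at 131 to 140 TPM in the DMAP1RNAi103734 series. TPM is the count of a gene per length, scaled to a fixed total in each library. The glial transcription factor repo was at 42.1 to 62.8 TPM in the DMAP1RNAi63666 series and at 51.7 to 59.6 TPM in the DMAP1RNAi103734 series. The neuroblast factor dpn was at 32.5 to 37.5 TPM in the DMAP1RNAi63666 series and at 38.1 to 41.3 TPM in the DMAP1RNAi103734 series. These single markers do not stand for their lists: of the log2 fold changes, DMAP1RNAi63666 over DMAP1RNAi103734, 6 of 7 glia markers were above 0 and repo was below, and of the 5 neuroblast markers 2 were above 0 and 3 below, dpn among them. None of the glia or neuroblast markers passed an adjusted p of 0.05 between the series (edgeR), against 1.55% of all genes tested. The RNAi target DMAP1 was at 7.08, 8.42 and 8.00 CPM (the count as a share of the library's total, scaled as TPM is but without length) in DMAP1RNAi63666 libraries 1 to 3, against 12.4, 13.8 and 11.7 CPM in DMAP1RNAi103734 libraries 1 to 3. It was lower in the DMAP1RNAi63666 series by edgeR's quasi-likelihood test, at -0.62 on the log2 scale (SE 0.12, n = 3 each, adjusted p = 0.0453). This call was lost when any 1 library other than library 2 of DMAP1RNAi63666 was left out (adjusted p 0.0774 to 0.168, edgeR), at -0.56 to -0.68 on the log2 scale. Genes of the mitochondrial genome took 8.18% to 10.91% of the counts in the DMAP1RNAi63666 series and 6.88% to 7.10% in the DMAP1RNAi103734 series.

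All 7 channel genes were read in every library, and all 7 passed the filter on low counts. By mean TPM over the 6 libraries the order was cac, NaCP60E, para, Ca-alpha1T, na, Ca-alpha1D and tipE. Their means ran from 34.3 TPM for tipE to 82.3 TPM for cac, against a median of 30.4 TPM over the genes kept by the filter. Between its highest and its lowest library para differed 6.45-fold, and the other 6 genes differed 1.29- to 1.90-fold.

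**Figure D1:**
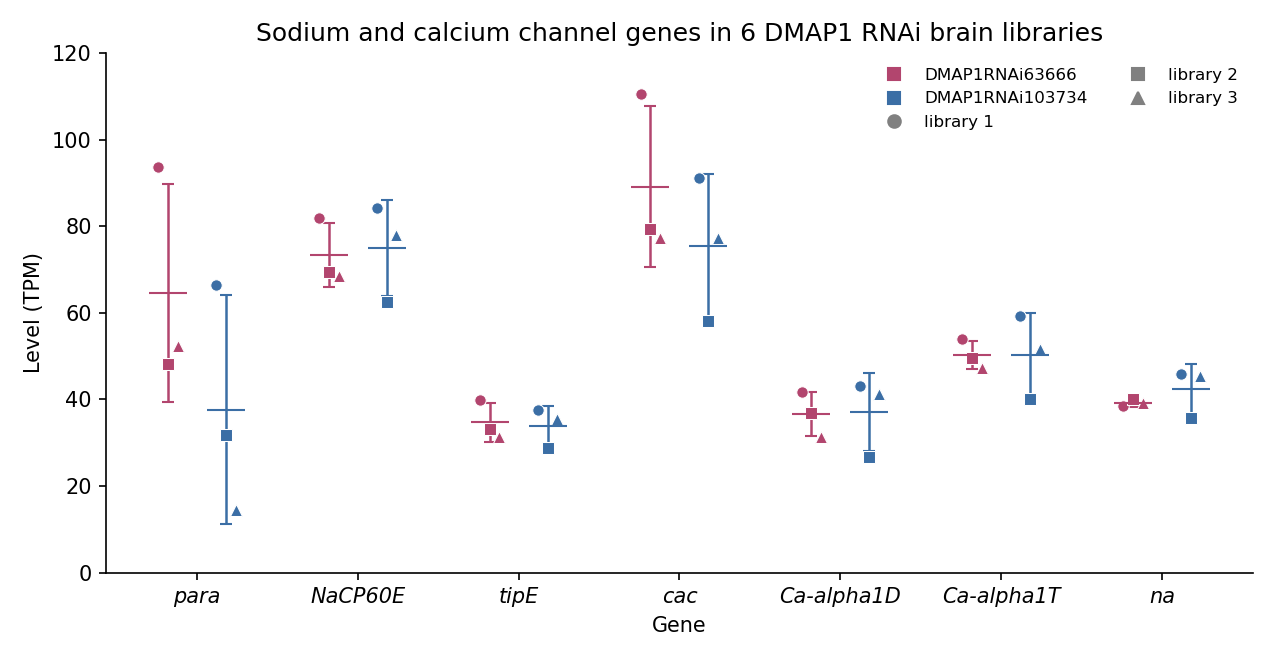
Level in TPM of each channel gene in the 3 DMAP1RNAi63666 libraries (red, left) and the 3 DMAP1RNAi103734 libraries (blue, right), with marker shapes for libraries 1 to 3 and bars for the series mean ± SD (n = 3). The series overlap for every gene, and para spans the widest range, 14.5 to 93.6 TPM.

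The gene para, short for paralytic, encodes the pore-forming subunit of the voltage-gated sodium channel of fly neurons. It lies on chromosome X, 16455027 to 16533096 on the minus strand of BDGP6, with 34 separate exon blocks that total 16309 bases. The table's identifier for it, FBgn0264255, was matched to the current gene by exon overlap. Its level was 93.6, 48.1 and 52.2 TPM in DMAP1RNAi63666 libraries 1 to 3, against 66.5, 31.8 and 14.5 TPM in DMAP1RNAi103734 libraries 1 to 3. Library 1 was the highest of each series, library 3 of DMAP1RNAi103734 was the lowest of all, and the series overlapped. These values rested on 19968, 11794 and 13426 counts in DMAP1RNAi63666 and on 15913, 7902 and 3480 counts in DMAP1RNAi103734.

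Counting error was small beside this range. The exact Poisson 95% interval was 624.8 to 642.4 CPM in library 1 of DMAP1RNAi63666 and 99.86 to 106.8 CPM in library 3 of DMAP1RNAi103734. Such intervals cover counting error only. Without library 3 of DMAP1RNAi103734 the highest para level was 2.95 times the lowest.

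NaCP60E encodes a channel of the sodium channel family by sequence, long known as DSC1, whose pore is reported to favour calcium. It lies on chromosome 2R, 24891614 to 24921677 on the plus strand, with 15625 exonic bases. Its level was 81.8, 69.4 and 68.6 TPM in DMAP1RNAi63666 libraries 1 to 3, against 84.1, 62.6 and 78.1 TPM in DMAP1RNAi103734 libraries 1 to 3. The series overlapped, and the highest library was 1.34 times the lowest. The share of para in the summed TPM of para and NaCP60E was 53.4%, 40.9% and 43.2% in DMAP1RNAi63666 libraries 1 to 3, against 44.2%, 33.7% and 15.7% in DMAP1RNAi103734 libraries 1 to 3. Thus para was the more abundant of the pair in 1 library, library 1 of DMAP1RNAi63666.

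The gene tipE encodes an auxiliary transmembrane subunit that raises the current of the para channel. It lies on chromosome 3L, 4188499 to 4193788 on the plus strand, in 3 exon blocks of 4084 bases. Its level was 39.8, 33.1 and 31.3 TPM in DMAP1RNAi63666 libraries 1 to 3, against 37.5, 28.7 and 35.4 TPM in DMAP1RNAi103734 libraries 1 to 3. The series overlapped over a 1.39-fold range, so the auxiliary subunit did not share the width of the range of para. Of its exonic length, 19.0% is shared with CG18675 on the same strand, where the deposited counts leave out read pairs that overlap both genes. CG18675 itself had 0 to 4 counts per library. The TPM of tipE divides by the full exon length and may therefore be understated. Its last place by mean TPM, and its differences from na and Ca-alpha1D, are uncertain to that degree.

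Among the pore-forming calcium channel genes, cac was the most abundant in every library. It encodes the presynaptic channel that triggers transmitter release, and lies on chromosome X, 11931280 to 11985087 on the minus strand, in 40 exon blocks of 11923 bases. Its level was 110.5, 79.4 and 77.3 TPM in DMAP1RNAi63666 libraries 1 to 3, against 91.0, 58.1 and 77.4 TPM in DMAP1RNAi103734 libraries 1 to 3. Library 1 was again the highest of each series, library 2 of DMAP1RNAi103734 was the lowest, and the series overlapped over a 1.90-fold range.

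Ca-alpha1D encodes the L-type channel, which carries much of the calcium current of muscle and of neuronal cell bodies. It lies on chromosome 2L, 16165831 to 16190540 on the plus strand, in 38 exon blocks of 10481 bases. Its level was 41.6, 36.8 and 31.4 TPM in DMAP1RNAi63666 libraries 1 to 3, against 43.1, 26.6 and 41.2 TPM in DMAP1RNAi103734 libraries 1 to 3. The highest and the lowest library both belonged to the DMAP1RNAi103734 series, 1.62-fold apart.

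Ca-alpha1T encodes the T-type channel, which opens at low voltages. It lies on chromosome X, 6104085 to 6192483 on the minus strand, in 28 exon blocks of 13140 bases. Its level was 53.9, 49.5 and 47.3 TPM in DMAP1RNAi63666 libraries 1 to 3, against 59.2, 40.2 and 51.7 TPM in DMAP1RNAi103734 libraries 1 to 3. Here too the DMAP1RNAi103734 series held both the highest and the lowest library, 1.47-fold apart.

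The makeup of the calcium channel genes moved little between libraries. Of the summed TPM of the 3 genes, cac made up 47.9% to 53.6% in the DMAP1RNAi63666 series and 45.4% to 47.1% in the DMAP1RNAi103734 series. The share of cac thus did not overlap between the series, and no test was made on the shares. The share of Ca-alpha1T was 26.2% to 30.4% in the DMAP1RNAi63666 series and 30.4% to 32.2% in the DMAP1RNAi103734 series. Ca-alpha1D held 20.1% to 22.2% in the DMAP1RNAi63666 series and 21.3% to 24.2% in the DMAP1RNAi103734 series.

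The gene na, short for narrow abdomen, encodes the pore of the sodium leak channel, the counterpart of mammalian NALCN, which acts in clock neurons and in the response to anaesthetics. It lies on chromosome X, 14266367 to 14277416 on the plus strand, in 16 exon blocks of 7875 bases. Its level was 38.4, 40.0 and 39.1 TPM in DMAP1RNAi63666 libraries 1 to 3, against 46.0, 35.8 and 45.4 TPM in DMAP1RNAi103734 libraries 1 to 3. The DMAP1RNAi63666 libraries lay between the DMAP1RNAi103734 libraries, and the range of 1.29-fold was the narrowest of the 7 genes.

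The order of the levels was compared within libraries, gene against gene, over all 21 pairs. In 12 of the 21 pairs the same gene was higher in 6 of 6 libraries. Each of these had p = 0.03125, the smallest that an exact two-sided sign-flip permutation test over 6 libraries can give, and 0.0547 after Benjamini-Hochberg adjustment, so 0 pairs passed 0.05. Of the 15 pairs without para, 11 were one-sided in every library, and of the 6 pairs with para, 1 was. In that pair cac exceeded para by 0.88 ± 0.78 on the log2 TPM scale (SD, n = 6). In the order of the means, cac and NaCP60E, the highest neighbours, differed by 0.13 ± 0.19, with cac higher in 4 of 6 libraries. NaCP60E exceeded para by 0.75 ± 0.91, in 5 of 6 libraries. Ca-alpha1T exceeded na by 0.30 ± 0.12, in 6 of 6 libraries, and was the 1 neighbour pair of 6 with a constant side. Without library 3 of DMAP1RNAi103734, cac exceeded para by 0.57 and NaCP60E exceeded para by 0.41. The differences between na and Ca-alpha1D, 0.16 ± 0.19, and between Ca-alpha1D and tipE, 0.09 ± 0.13, were within their spread.

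The place of para among the 7 genes was not fixed. Ranked by TPM, para was 2nd, 4th and 3rd in DMAP1RNAi63666 libraries 1 to 3, and 3rd, 5th and 7th in DMAP1RNAi103734 libraries 1 to 3. By contrast, cac was 1st or 2nd in each library and Ca-alpha1T was 3rd or 4th. The pair of para and Ca-alpha1T, whose means were 51.1 ± 27.5 and 50.3 ± 6.42 TPM (SD, n = 6), was split evenly, with para higher in 3 of 6 libraries. Their mean log2 TPM difference, para minus Ca-alpha1T, was -0.18, and 0.15 without library 3 of DMAP1RNAi103734.

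The spread of para was set beside that of other genes after its values were seen. On the log2 CPM scale with TMM scaling, which corrects for the composition of the libraries, the SD of para over the 6 libraries was 0.96, against 0.13 to 0.33 for the other channel genes. Of the 530 genes whose mean lay within 0.5 log2 units of that of para, 99.4% had a smaller SD, and their median SD was 0.17. The spread of para lay largely within the series: with the series means removed its SD was 0.87. By the SD over the 6 libraries, Ca-alpha1D was above 89.6% and cac above 87.4% of the genes of like abundance. The other 4 genes were above 42.3% (na) to 69.6% (tipE) by that SD. With the series means removed, Ca-alpha1D was above 98.0% and cac above 93.4% of the genes of like abundance. The other 4 genes were then above 59.3% (na) to 84.1% (tipE).

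**Figure D2:**
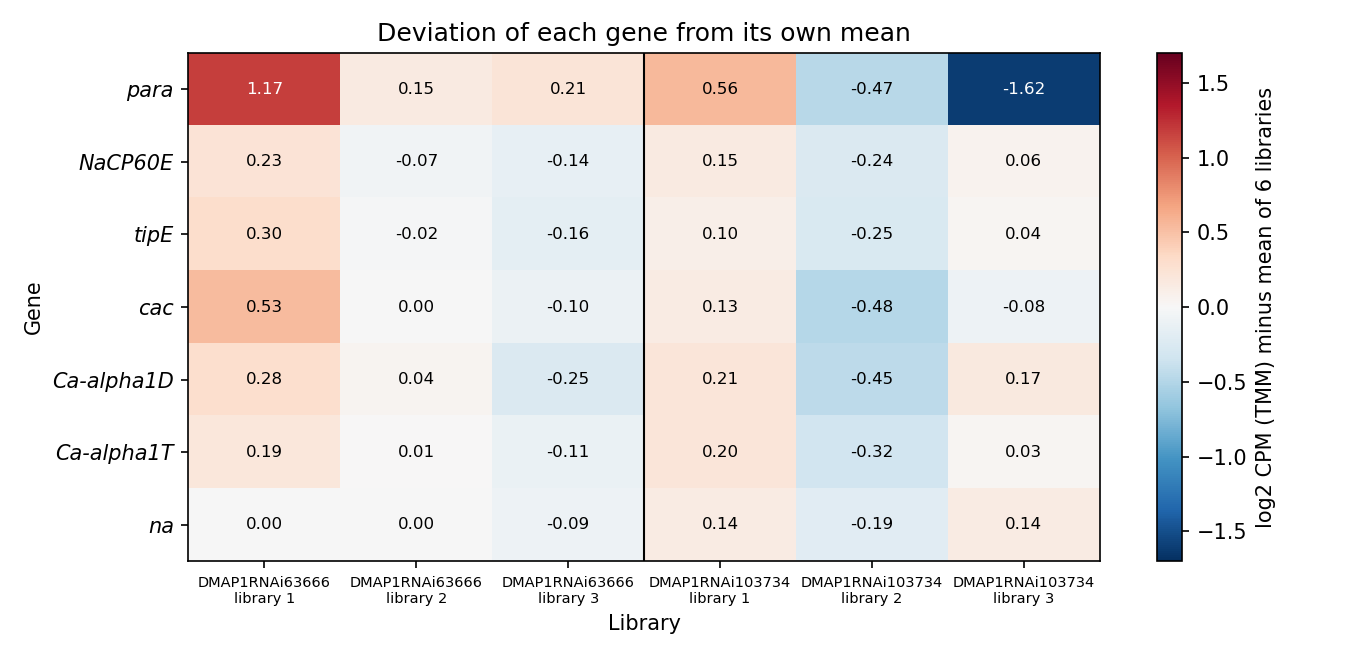
Deviation of each channel gene from its own mean over the 6 libraries, on the log2 CPM scale with TMM scaling (colour and printed value). The row of para runs from 1.17 in library 1 of DMAP1RNAi63666 to -1.62 in library 3 of DMAP1RNAi103734, while no other gene deviates by more than 0.53.

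Library 2 of DMAP1RNAi103734 was below the mean for all 7 genes, and library 1 of DMAP1RNAi103734 was above it for all 7. Library 3 of DMAP1RNAi103734 separated the genes. There the deviation of para from its own mean over the 6 libraries was -1.62 log2 units. The deviations of the other 6 genes from their own means averaged 0.06 in that library. Across the 6 libraries the log2 CPM values of the genes other than para correlated in pairs with a median Pearson r of 0.90 (range 0.50 to 0.97, 15 pairs). The pairs with para had a median r of 0.41 (range -0.14 to 0.65, 6 pairs). These correlations share libraries and their scaling and are given as a description.

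Sums of cell type markers were set beside the channel genes. The summed TPM of the 5 neuron markers, elav, nSyb, Syt1, fne and Syx1A, was 1690, 1320 and 1310 in DMAP1RNAi63666 libraries 1 to 3, against 1370, 1040 and 1230 in DMAP1RNAi103734 libraries 1 to 3. The summed TPM of the channel genes was 460, 356 and 347 in DMAP1RNAi63666 libraries 1 to 3, against 427, 284 and 344 in DMAP1RNAi103734 libraries 1 to 3. The 7 glia markers summed to 6030, 5050 and 5330 TPM in DMAP1RNAi63666 libraries 1 to 3, against 4850, 4410 and 4920 TPM in DMAP1RNAi103734 libraries 1 to 3. All 3 sums were highest in library 1 of DMAP1RNAi63666 and lowest in library 2 of DMAP1RNAi103734, so these ends were not particular to the neuron markers.

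After the mean log2 CPM of the neuron markers was subtracted, the SD of the mean of the 7 channel genes was 0.10, against 0.27 before, and that of the mean of the 6 genes without para was 0.16, against 0.21 before. For single genes it was 0.12 for cac, against 0.33 before, 0.77 for para, against 0.96 before, and 0.17 for NaCP60E, against 0.18 before. That of na was larger after the subtraction, 0.26 against 0.13 before. On this scale NaCP60E was at -0.55, -0.45 and -0.50 in DMAP1RNAi63666 libraries 1 to 3, against -0.22, -0.28 and -0.11 in DMAP1RNAi103734 libraries 1 to 3, with no overlap. The series did not overlap for tipE, Ca-alpha1T, na and the mean of the 6 genes either, all lower in DMAP1RNAi63666. For Ca-alpha1T the nearest libraries were at -1.18 and -1.17. The series overlapped for para, cac and Ca-alpha1D. All 5 neuron markers had log2 fold changes above 0 (median 0.27), so the subtraction by itself lowers a gene in DMAP1RNAi63666 relative to DMAP1RNAi103734. The share of all genes without overlap on this scale was not computed. No test was made on this scale, which was added after the values were seen.

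Markers of other tissues also differed between libraries. The 6 fat body markers summed to 139, 29.5 and 66.0 TPM in DMAP1RNAi63666 libraries 1 to 3, against 38.9, 497 and 69.0 TPM in DMAP1RNAi103734 libraries 1 to 3, with none at 0 in any library. Their largest sum was in library 2 of DMAP1RNAi103734, where the channel genes had their lowest sum, 284 TPM. The next largest, 139 TPM, was in library 1 of DMAP1RNAi63666, where the channel genes had their highest sum, 460 TPM. Lsp1alpha, a larval serum protein, was at 67.5 TPM in library 2 of DMAP1RNAi103734. The 6 muscle markers summed to 149 to 482 TPM in the DMAP1RNAi63666 series and 235 to 400 TPM in the DMAP1RNAi103734 series, with the myosin heavy chain Mhc at 7.92 to 37.0 TPM over all libraries. The part of these tissues in the levels of the channel genes was not tested.

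Between the series, 0 of the 7 channel genes passed an adjusted p of 0.05 (edgeR, adjusted over the 10211 genes tested), and 0 had an unadjusted p under 0.05, against 24.6% of all genes tested. Of all genes tested, 158 passed the adjusted threshold, or 1.55%, with 89 (0.872%) higher and 69 (0.676%) lower in DMAP1RNAi63666. The 7 genes had a median log2 fold change, DMAP1RNAi63666 over DMAP1RNAi103734, of 0.05, beside 0.00 over all genes tested. The labels do not give this split and name no separate animals or pools, so the spread behind the p-values is that between these libraries and may be technical.

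For para the log2 fold change was 0.84 (SE 0.50, 95% interval -0.30 to 1.99, adjusted p = 0.321, edgeR), on means of 64.7 ± 25.2 TPM in DMAP1RNAi63666 and 37.6 ± 26.5 TPM in DMAP1RNAi103734 (SD, n = 3 each). Its fold change without library 1 of DMAP1RNAi63666 was 0.43 on the log2 scale, and without library 1 of DMAP1RNAi103734 it was 1.53, neither past the threshold. For cac, on means of 89.1 ± 18.6 TPM in DMAP1RNAi63666 and 75.5 ± 16.6 TPM in DMAP1RNAi103734, it was 0.29 (SE 0.20, 95% interval -0.18 to 0.76, adjusted p = 0.397, edgeR). Leaving out library 1 of DMAP1RNAi63666 gave 0.06 for cac, and leaving out library 1 or library 2 of DMAP1RNAi103734 gave 0.44 or 0.14.

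The remaining channel genes had log2 fold changes near 0 with narrower intervals. The value for NaCP60E was 0.02 (95% interval -0.31 to 0.34) and that for tipE was 0.08 (-0.24 to 0.41). Ca-alpha1D had 0.04 (-0.41 to 0.48) and Ca-alpha1T had 0.05 (-0.29 to 0.38). For na it was -0.07 (-0.31 to 0.17). A level 2-fold higher in DMAP1RNAi63666, or 1 on the log2 scale, lay inside the interval of para and outside that of each of the other 6 genes.

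**Figure D3:**
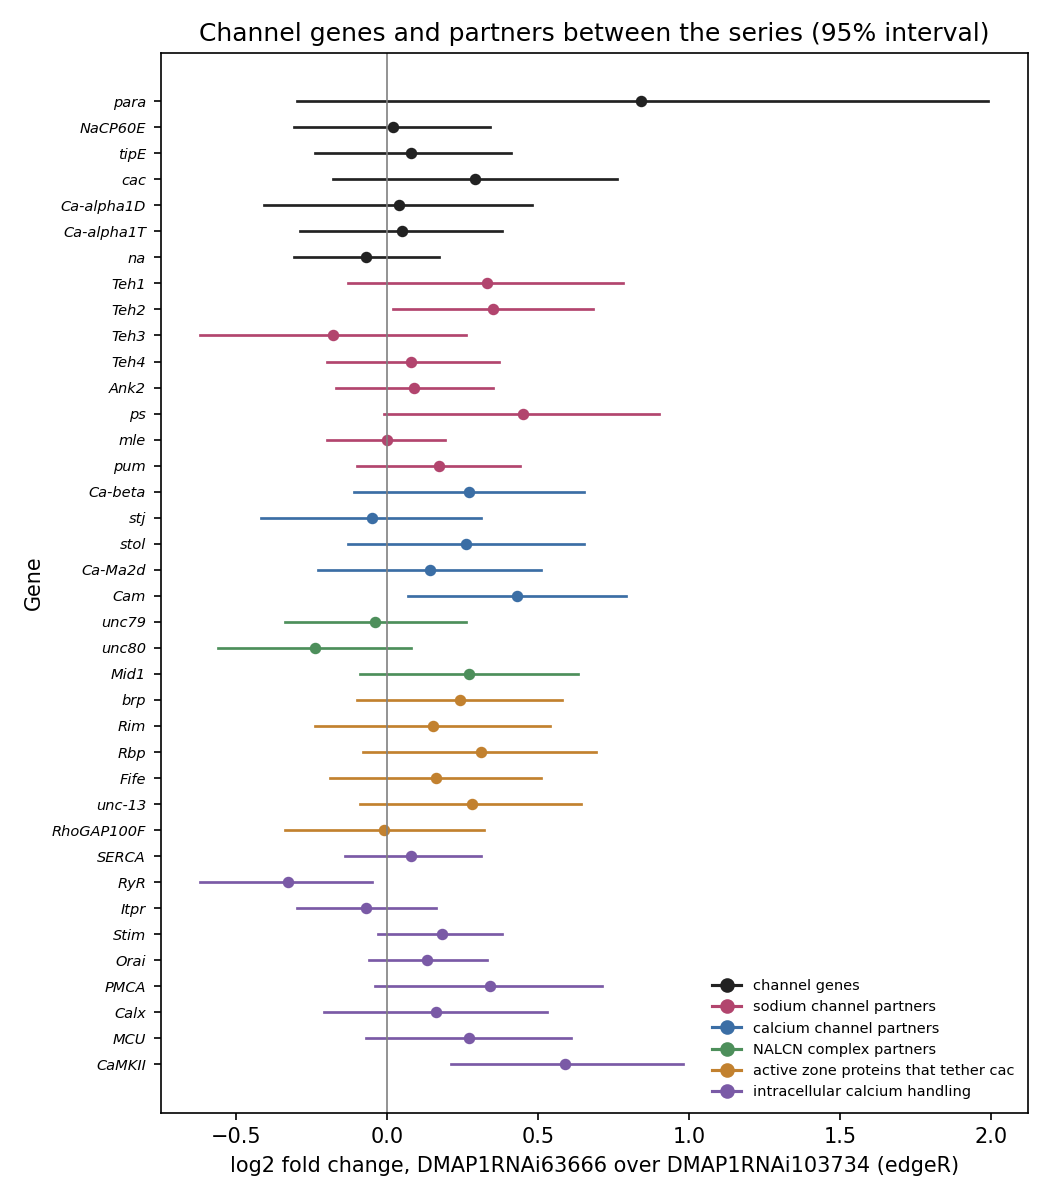
The log2 fold change of each channel gene and each partner gene, DMAP1RNAi63666 over DMAP1RNAi103734 (edgeR, n = 3 each), with its 95% interval. The interval of para, -0.30 to 1.99, is the widest, and no gene shown passed the adjusted threshold.

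The proteins that work with these channels were taken from 5 lists with 31 genes. With edgeR, 0 of the 31 passed the adjusted threshold in either direction, against 1.55% of all genes tested. At an unadjusted p under 0.05 there were 4 of the 31, Teh2, Cam, RyR and CaMKII, against 24.6% of all genes. With DESeq2, 1 of the 31 passed, CaMKII, against 9.39% of all genes. Below, partner genes whose series did not overlap in TPM are named. The share of all genes without such overlap was not computed, so this is a description only.

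The sodium channel partners had a median log2 fold change of 0.13 over 8 genes. Teh1, Teh2, Teh3 and Teh4 are relatives of tipE, of which Teh2 was the most abundant. Teh2 was at 96.3, 80.7 and 77.7 TPM in DMAP1RNAi63666 libraries 1 to 3, against 77.5, 57.5 and 71.8 TPM in DMAP1RNAi103734 libraries 1 to 3. These series did not overlap, and the log2 fold change was 0.35 (SE 0.14, adjusted p = 0.181, edgeR). Teh1 had 0.33, Teh3 -0.18 and Teh4 0.08. The gene mle encodes an RNA helicase, a mutant form of which disturbs the splicing of para transcripts. Pumilio, pum, is a translational repressor that acts on para RNA. For mle the log2 fold change was 0.00 (95% interval -0.20 to 0.19), at 73.3 to 92.3 TPM over the 6 libraries. The gene ps, pasilla, which encodes a splicing factor reported to act on para, had 0.45 (-0.01 to 0.90). The repressor pum had 0.17, and Ank2, the neuronal ankyrin, had 0.09.

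The calcium channel partners had a median log2 fold change of 0.26 over 5 genes. Ca-beta encodes the cytoplasmic beta subunit and had a log2 fold change of 0.27. The alpha2delta genes stj, stol and Ca-Ma2d encode extracellular subunits that bring channels to the membrane, and had -0.05, 0.26 and 0.14. Calmodulin, Cam, which binds calcium and tunes the channels, was at 1323, 1001 and 1070 TPM in DMAP1RNAi63666 libraries 1 to 3, against 979.2, 800.9 and 826.5 TPM in DMAP1RNAi103734 libraries 1 to 3. The series did not overlap for Cam, whose log2 fold change was 0.43 (SE 0.16, adjusted p = 0.161, edgeR).

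The partners of na in the leak channel complex had a median log2 fold change of -0.04 over 3 genes. The large cytoplasmic subunits unc79 and unc80 had -0.04 and -0.24, and Mid1, the auxiliary subunit, had 0.27. Their mean levels over the 6 libraries, 49.0 TPM for unc79, 68.3 TPM for unc80 and 76.8 TPM for Mid1, were all above the 40.8 TPM of na.

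The active zone proteins that hold cac at release sites had a median log2 fold change of 0.20 over 6 genes. Bruchpilot, brp, the core scaffold, had 0.24, and the scaffolds Rim, Rbp and Fife had 0.15, 0.31 and 0.16. The priming factor unc-13 had 0.28, and RhoGAP100F, the assembly factor also called Syd-1, had -0.01.

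The genes of intracellular calcium handling had a median log2 fold change of 0.16 over 9 genes. CaMKII, the calcium and calmodulin dependent kinase, was at 680.2, 499.9 and 490.6 TPM in DMAP1RNAi63666 libraries 1 to 3, against 413.8, 343.3 and 388.7 TPM in DMAP1RNAi103734 libraries 1 to 3. These series did not overlap, and the log2 fold change was 0.59 (SE 0.17, 95% interval 0.21 to 0.98, adjusted p = 0.117, edgeR). In the same fit the 5 neuron markers had log2 fold changes of 0.15 to 0.63, with a median of 0.27. RyR, the ryanodine receptor of internal stores, was at 8.51, 11.4 and 11.3 TPM in DMAP1RNAi63666 libraries 1 to 3, against 14.8, 11.7 and 13.9 TPM in DMAP1RNAi103734 libraries 1 to 3. The series did not overlap, and the log2 fold change was -0.33 (SE 0.12, adjusted p = 0.164, edgeR). The pumps and exchangers SERCA, PMCA and Calx had 0.08, 0.34 and 0.16. The other store receptor Itpr had -0.07, the store sensor Stim and its pore Orai had 0.18 and 0.13, and the mitochondrial uniporter MCU had 0.27. The series did not overlap for Stim either (adjusted p = 0.251, edgeR). Stim was at 84.39, 76.44 and 77.95 TPM in DMAP1RNAi63666 libraries 1 to 3, against 74.43, 69.91 and 73.24 TPM in DMAP1RNAi103734 libraries 1 to 3.

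Potassium channels, which end the action potential, were set beside the sodium and calcium channels. Of the 10 potassium channel genes listed, 0 passed the adjusted threshold, against 1.55% of all genes tested. Their median log2 fold change was 0.19. The most abundant was Shab, a delayed rectifier, at 97.5, 76.1 and 75.1 TPM in DMAP1RNAi63666 libraries 1 to 3, against 115.0, 77.8 and 106.8 TPM in DMAP1RNAi103734 libraries 1 to 3. The series overlapped, and the log2 fold change was -0.22 (95% interval -0.63 to 0.19).

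Genes whose pattern over the 6 libraries was most like that of the channel genes were ranked by Pearson r on log2 CPM, as a description. For the mean of the 7 channel genes, the highest r among 10204 other genes was 0.996 for mmd, a metalloprotease-family gene. It was followed by lncRNA:CR44529 at 0.994, sif, a synaptic Rac exchange factor, at 0.994, the nicotinic receptor subunit nAChRalpha3 at 0.991, and GramD1B at 0.984. There were 258 genes with r above 0.9, over 6 libraries that share their scaling.

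For para alone, a ranking added after its values were seen, 58 genes had r above 0.9. The 5 highest were Unr at 0.993, Sh at 0.993, bru3 at 0.991, CG42246 at 0.982 and lncRNA:roX2 at 0.980. Unr and bru3 encode RNA-binding proteins, lncRNA:roX2 is an RNA of the dosage compensation complex, and Sh is the Shaker potassium channel. Sh was at 68.1, 40.9 and 43.4 TPM in DMAP1RNAi63666 libraries 1 to 3, against 56.3, 31.6 and 20.9 TPM in DMAP1RNAi103734 libraries 1 to 3. Like para, it was highest in library 1 of DMAP1RNAi63666 and lowest in library 3 of DMAP1RNAi103734, 3.27-fold apart. Unr was at 122, 76.1 and 85.0 TPM in DMAP1RNAi63666 libraries 1 to 3, against 87.6, 57.1 and 28.0 TPM in DMAP1RNAi103734 libraries 1 to 3. With bru3 at 136 TPM in library 1 of DMAP1RNAi63666 and 43.7 TPM in library 3 of DMAP1RNAi103734, the same libraries stood at the ends. These genes were picked for a high r with para, so shared ends are largely a result of that choice.

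**Figure D4:**
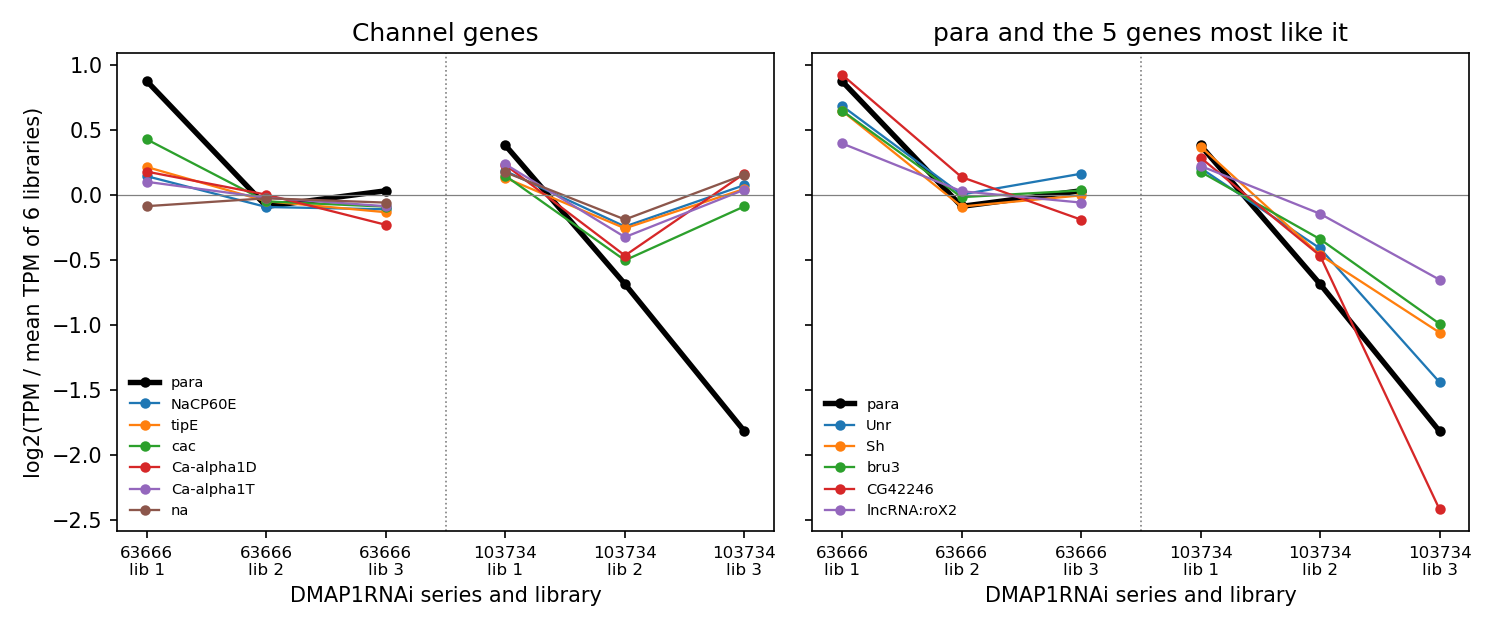
Level of each gene in each library, as log2 of TPM over its mean TPM of the 6 libraries, for the channel genes (left) and for para with the 5 genes of the highest Pearson r with it (right). Lines link libraries of a series only to make a gene easy to follow. The 5 genes on the right were picked by their r with para and, like para, are lowest in library 3 of DMAP1RNAi103734.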

How the data were processed

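Polyadenylated RNA was sequenced from 6 brain samples. The authors deposited raw counts, whole numbers of read pairs assigned to each gene, made with featureCounts 1.6.5 (strand option 2, paired-end) on BDGP6 release 84, per the file headers. DESeq2 stands in the submitters' processing notes too, without a stated use. No version of the aligner is given in the sources used here. Read pairs that overlap several genes are not counted. The table holds 3 further columns of per-sample values that match no label, which were not used. Column names show the group and a series of 3, but not which labelled sample each is.

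CPM and TPM were computed here from the deposited counts and the exon lengths in the same table. Of the 17490 rows, 17216 were named by identifier in Ensembl release 115, 228 by exon overlap of at least 0.8, and 46 kept their identifier. The series were compared over 10211 genes with edgeR 4.0.16 (R 4.3.3), TMM scaling, a minimum count of 10 and Benjamini-Hochberg adjustment, tested on simulated data first. DESeq2 1.42.0 was an alternative. Pairs of genes were tested by exact sign-flip permutation, which pools the series.

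Named are the 7 genes, the genes of 5 partner lists, the most abundant potassium channel, the first marker of each cell type list, DMAP1 and the 5 genes of most similar pattern. The genes, lists and tests were chosen with earlier results of these data known. The likeness rankings of para alone and of the 6 other genes, the comparison with genes of like abundance, the subtraction of neuron markers and the 95% intervals were added after values were seen. The list gene CG4587 is an older name of stol, and phm matched no single row.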

Additional observations from a re-analysis of the deposited data

Results flagged for a closer look

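Of 38 genes examined, the channel genes and their partners, 2 had a library far from the other 5, where chance alone flags about 1 in 20. Teh4, a relative of the sodium channel subunit tipE, was at 48.2 TPM in library 2 of DMAP1RNAi103734, while the next lowest library was at 60.9 TPM and the highest at 66.1 TPM. All 7 channel genes were also below their means in that library. Orai, the pore of the store-operated calcium channel, was at 25.6 TPM in library 3 of DMAP1RNAi63666, while the next highest was at 22.1 TPM and the lowest at 20.6 TPM. The libraries of para, spread over the whole range, did not leave 1 of them apart in this way.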

How the results depend on the processing

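The count of 0 of 7 channel genes past the threshold between the series held under each alternative run. Of all genes, 158 passed with edgeR, against 959 with DESeq2, 278 with the number in the column name as a replicate block, and 69 to 457 when 1 library was left out. The block, unlike the main fit, gave more lower than higher calls (107 higher, 171 lower). No label pairs the libraries by number, and deviations of same-numbered libraries correlated at 0.24, -0.21 and -0.26. These deviations are taken from the mean of 3 libraries and depend on each other, so they cannot exclude a pairing. For para the block gave a log2 fold change of 1.01 (adjusted p = 0.0615, edgeR), and leaving out a library gave 0.43 to 1.53. Among the partner genes, 1 passed with DESeq2, CaMKII (0.60, adjusted p = 0.0107), and its adjusted p over the alternatives with edgeR was never below 0.0625. DMAP1 missed the threshold with total counts (-0.69, adjusted p = 0.0549) and with the block (-0.62, adjusted p = 0.0507), both edgeR.

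Values near 0 changed sign. With total counts in place of TMM, which moved the median of all genes to -0.07, the log2 fold change was -0.06 for NaCP60E, -0.04 for Ca-alpha1D and -0.03 for Ca-alpha1T. Leaving out 1 library gave -0.11 to 0.10 for NaCP60E, -0.06 to 0.18 for tipE, -0.15 to 0.16 for Ca-alpha1D and -0.09 to 0.17 for Ca-alpha1T. For the partners it gave -0.30 to 0.01 for Teh3, -0.05 to 0.16 for Teh4, -0.05 to 0.04 for mle, -0.20 to 0.05 for stj, -0.01 to 0.25 for Ca-Ma2d, -0.18 to 0.06 for unc79, -0.03 to 0.27 for Rim, -0.13 to 0.08 for RhoGAP100F and -0.16 to 0.01 for Itpr. With CPM, which ignores gene length, 14 of the 21 pairs passed (adjusted p = 0.0469, exact permutation test), against 0 with TPM. All 14 were at the smallest p that the test can give. With TPM 12 pairs were at that p, too few for any to pass after adjustment. The log2 CPM difference was -0.26 for cac minus NaCP60E, -0.25 for na minus Ca-alpha1D and 0.13 for para minus Ca-alpha1T, each opposite in sign to TPM. With 1 genotype and 3 libraries a series, the number of libraries limits these comparisons.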

Other observations

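When para was left out, the mean of the other 6 channel genes had its highest Pearson r over the 6 libraries with wrd, a regulatory subunit of protein phosphatase PP2A, at 0.998, followed by CG9902 at 0.997 and the synaptic adhesion protein Nrx-1 at 0.996. CG9265 and snoRNA:Me28S-C3420a followed at 0.995 and 0.994. Nrx-1 was at 79.9, 67.6 and 63.7 TPM in DMAP1RNAi63666 libraries 1 to 3, against 78.2, 55.1 and 74.8 TPM in DMAP1RNAi103734 libraries 1 to 3. In all, 346 genes had r above 0.9 with this mean, and none of the 5 named here is among the 5 closest to para. This ranking was chosen after the values were seen, and is a description without a test.

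Other cell types of the brain and its neighbours gave these summed levels. The 5 neuroblast markers summed to 311 to 350 TPM in the DMAP1RNAi63666 series and 340 to 348 TPM in the DMAP1RNAi103734 series. The 4 hemocyte markers, led in the list by Hml, summed to 20.8 to 60.6 TPM in the DMAP1RNAi63666 series and 26.3 to 83.6 TPM in the DMAP1RNAi103734 series. The 4 ring gland markers matched summed to 219 to 348 TPM in the DMAP1RNAi63666 series and 235 to 291 TPM in the DMAP1RNAi103734 series. The 5 eye disc markers, with ey, summed to 112 to 141 TPM in the DMAP1RNAi63666 series and 137 to 141 TPM in the DMAP1RNAi103734 series.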
